A study of Mus musculus with 2 samples.

Results

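The enzymes that write, copy and remove cytosine methylation, and the proteins that help them, were examined as a set of 10 genes: Dnmt1, Dnmt3a, Dnmt3b, Dnmt3l, Uhrf1, Tet1, Tet2, Tet3, Dppa3 and Tdg. Their loci were searched for sites marked by a fusion of Dnmt1 itself to Dam. The rule took each peak that the deposited table assigned by name to one of these genes. It found 5 of 8226 peaks, at 4 of the 10 genes. Dnmt3a had 2, and Dnmt1, Dnmt3b and Dppa3 had 1 each. No peak was assigned to Dnmt3l, Uhrf1, Tet1, Tet2, Tet3 or Tdg.

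In DamID, a chromatin protein is joined to Dam, a bacterial enzyme that methylates the adenine of GATC, and Dam alone reports how open the DNA is. The Dnmt1-Dam library came from 50 mouse embryos injected with Dnmt1-V5-Dam, and the Dam-only library from 50 embryos injected with Dam and no partner. Both groups were BCF1 (C57BL/6 x CBA/CA) embryos, obtained as zygotes from superovulated females of 5 weeks, cultured after collection and harvested at the 4- to 8-cell stage. Each library pools its embryos and stands alone, so no replicate spread exists and no p-value was computed. The fusion was added to embryos that also hold their own Dnmt1, and what drove its expression was not stated in the sources used here.

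Cytosine methylation in mammals is copied after replication by Dnmt1, which Uhrf1 brings to half-methylated CpG sites. It is laid down anew by Dnmt3a and Dnmt3b, helped by the inactive relative Dnmt3l. The Tet dioxygenases oxidize the methyl group, and Tdg cuts out the oxidized base for repair. After fertilization the genome loses much of its methylation, Tet3 acts on the paternal genome, and Dppa3 shields the maternal one. In oocytes Dnmt1 is transcribed from an upstream start that yields an oocyte form, which persists through cleavage.

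Dam can mark only GATC, so the start regions of these genes were read for that sequence. RefSeq promoter windows of assembly GRCm38.p6, each of 300 bases (250 before a start site and 50 after it), were used. They were matched for 9 of the 10 genes, all but Dppa3, and numbered 16. GATC reads the same on both strands and cannot overlap itself. It was present in 5 of the 16 windows, against 48.0% of 32851 windows of all genes. The 7 windows of Dnmt1, Dnmt3a and Dnmt3b held none, while Dnmt3l, Uhrf1, Tet3 and Tdg each had a window with it. Windows of Dnmt3a overlap in part, so the 7 are not all separate stretches, and the difference between genes was not tested. The windows are shorter than the promoter classes used below, so they do not show whether Dam could mark a promoter outside them. As examples, the 250 bases upstream of a start are shown for 4 of the genes, chosen for maintenance (Dnmt1, chr9:20952980-20953229, minus strand), help to the de novo enzymes (Dnmt3l, chr10:78042037-78042286, plus strand), recruitment of Dnmt1 (Uhrf1, chr17:56303087-56303336, plus strand) and oxidation (Tet3, chr6:83441679-83441928, minus strand). For each gene the window with the most GATC was taken, then that with the most CpG, after leaving out any whose start lies within 1 kb downstream of another listed start. They run 5′ to 3′ along the gene, with GATC in capitals. These coordinates are of GRCm38.p6 and cannot be set beside the mm9 positions of the peaks.
Dnmt1: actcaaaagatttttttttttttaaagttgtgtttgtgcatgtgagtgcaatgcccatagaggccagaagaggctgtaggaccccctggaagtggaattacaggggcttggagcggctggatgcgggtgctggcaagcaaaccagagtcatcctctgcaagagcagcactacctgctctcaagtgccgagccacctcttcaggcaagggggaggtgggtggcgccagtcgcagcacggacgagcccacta
Dnmt3l: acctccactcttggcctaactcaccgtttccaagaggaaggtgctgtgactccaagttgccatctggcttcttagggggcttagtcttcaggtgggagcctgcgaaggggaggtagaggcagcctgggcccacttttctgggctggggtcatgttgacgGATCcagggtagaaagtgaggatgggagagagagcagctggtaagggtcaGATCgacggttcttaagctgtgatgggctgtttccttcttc
Uhrf1: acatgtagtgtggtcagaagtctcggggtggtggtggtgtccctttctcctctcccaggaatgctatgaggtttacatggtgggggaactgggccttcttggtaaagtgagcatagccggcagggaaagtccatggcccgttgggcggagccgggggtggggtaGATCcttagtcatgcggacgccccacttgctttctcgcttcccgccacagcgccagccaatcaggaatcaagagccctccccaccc
Tet3: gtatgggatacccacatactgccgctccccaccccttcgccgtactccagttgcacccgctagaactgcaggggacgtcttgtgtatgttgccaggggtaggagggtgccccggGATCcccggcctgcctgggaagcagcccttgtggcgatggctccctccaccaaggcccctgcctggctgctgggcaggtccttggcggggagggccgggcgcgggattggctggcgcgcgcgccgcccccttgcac
The Dnmt3l stretch held 2 GATC, beginning at -91 and -41 from the start site. Those of Uhrf1 and Tet3 held 1 each, at -86 and -136, and that of Dnmt1 held none. CpG, the substrate of the enzymes themselves, occurred 7 times in the Dnmt1 stretch, 5 in Dnmt3l, 10 in Uhrf1 and 17 in Tet3. These values depend on the start chosen: upstream of the other Dnmt1 starts there were 26 and 2 CpG, with no GATC, and upstream of the second Uhrf1 start 30 CpG, also with no GATC. The windows of Tet1 and Tet2 held no GATC, and that of Tdg held 1. Over the 16 windows of the 9 matched genes the median was 20 CpG (range 2 to 57), against 7 for all windows.

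No peak of these genes lay in a promoter class (0 of 5, exact 95% interval 0 to 52.2%). The file's classes follow the distance to the assigned start site: a proximal promoter runs from 3 kb upstream to 1 kb downstream, and a distal promoter from there to 10 kb upstream. Such peaks were rare everywhere, at 2.66% and 4.07% of the 8226. Of the 5 peaks, 3 lay inside a gene body (60.0%, 14.7 to 94.7) against 42.5% of all peaks, and 2 were intergenic. Among peaks of height 9 or more the order turned, with 1 of 3 (33.3%) against 43.3%. A repeat was named at 1 of the 5 (20%, 0.505 to 71.6), against 39.5% of all peaks, and at height 9 or more the shares were 33.3% and 38.9%. A CpG island shore or shelf was named at 2 of the 5 (40.0%, 5.27 to 85.3), against 6.61% of all peaks with any island context, and none lay in an island. With 5 peaks the intervals are wide, and each contained the share of all peaks. The intervals here and below cover counting error only.

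Dnmt1, the maintenance enzyme and the protein fused to Dam, carried the highest of the 5 peaks. Its height was 16 with Dnmt1-Dam and 1 with Dam alone, a ratio of 16. Heights are the authors' signal values, and their scale and the sequencing depth were not given in the sources used here. Its position, 20725941 on chromosome 9 (mm9), was 68.7% of the way along the 45.7 kb body (20711653 to 20757317, minus strand, NM_010066) and 14.3 kb before its end. Of all peaks, 561 (6.82%) were as high or higher. The share was 7.25% among gene body peaks, 7.98% among peaks in SINEs, which are short mobile elements, and 7.99% among shore peaks. All 3 annotations met at 24 peaks, with a median height of 9.5 and a range of 7 to 20, and the Dnmt1 peak was 1 of 2 among them to reach 16. A shore flanks a CpG island, yet this peak was 31.4 kb from the start site the file uses. The RefSeq windows give Dnmt1 start sites up to 7.26 kb apart, so the distance depends on the start chosen. Whether the position is exonic or intronic is not given in the file. Of the 2 libraries, only Dnmt1-Dam came from embryos injected with a Dnmt1 construct. Whether reads from that construct added to the 16 against 1 at this gene was not tested. The peak is thus not shown to be a site that the fusion marked in the embryo's own Dnmt1 gene.

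**Figure D1:**
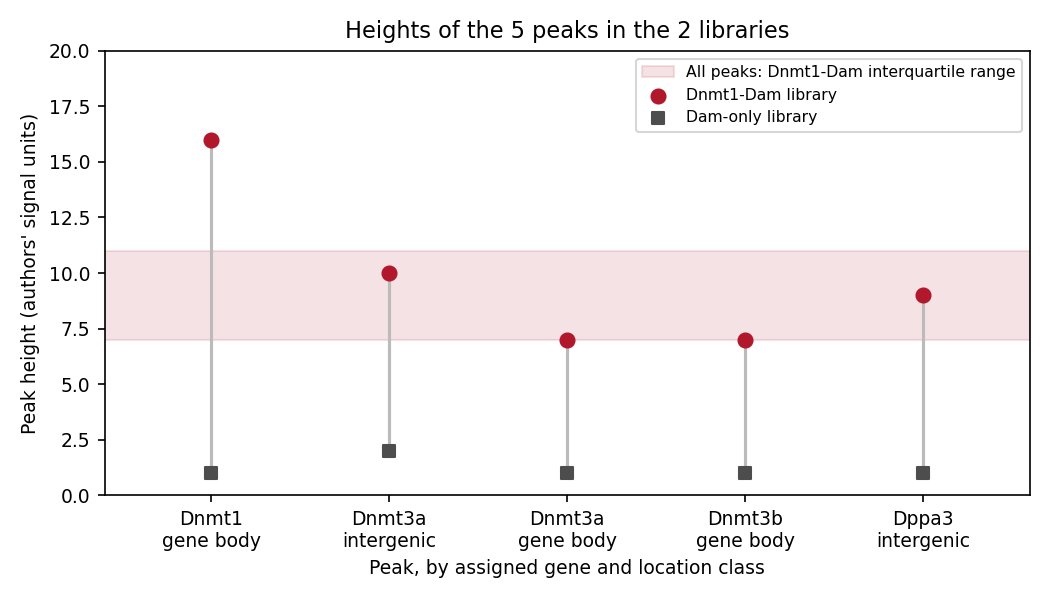
Height (authors' signal units) of each of the 5 peaks with Dnmt1-Dam (red circles) and with Dam alone (grey squares), 1 library per group, with the interquartile range of all Dnmt1-Dam heights shaded. The Dnmt1 peak, at 16, is the single one above the shaded range of 7 to 11, and the Dnmt3a gene body and Dnmt3b peaks lie at its lower edge of 7.

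Dnmt3a, a de novo methyltransferase, had a peak on each side of the start site the deposited table uses. The RefSeq windows also list a Dnmt3a start farther downstream (3891744, against 3806980, both in GRCm38.p6). Side and distance thus depend on the start chosen, and those given here are for the deposited one. The upstream peak, at 3791371 on chromosome 12, was 10 high with Dnmt1-Dam and 2 with Dam alone, a ratio of 5. It was the single one of the 5 with a Dam-only height above 1, and its ratio was the lowest. It lay in intergenic DNA with no repeat or island context, 15.6 kb upstream of the start, and 9.87 kb from the end of Dtnb, a dystrobrevin gene. By gap to the gene body it was thus closer to Dtnb. Peaks outside genes were assigned by start site: all 4180 intergenic peaks went to the nearest start among the genes with a row. The second peak, at 3815541, was 7 against 1 and lay 8.56 kb into the 107 kb body (3806980 to 3914443, plus strand, NM_007872), 8.0% of the way along. A height of 7 is the smallest in the table, which 2206 peaks (26.8%) share.

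Dnmt3b, the other de novo enzyme, had a peak of the same heights, 7 against 1, at 153495671 on chromosome 2. It was in the shelf of a CpG island with no repeat, 53.5% of the way along the 38.3 kb body (153475190 to 153513466, plus strand, NM_001003963) and 20.5 kb from its start. Gene body peaks in a shelf and outside repeats numbered 75, with a median of 9 and a range of 7 to 18. The Dnmt3b peak was thus among the lowest of its kind. Dnmt3l, the cofactor of both enzymes, had no assigned peak.

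Dppa3, which protects the maternal genome from demethylation, had a peak of 9 against 1 at 122608691 on chromosome 6. The gene is short (3.85 kb, 122576442 to 122580289, plus strand, NM_139218), and the peak lay 28.4 kb beyond its end, in intergenic DNA with no repeat or island context. Of all peaks, 47.1% were lower and 38.3% higher. It was also the most isolated of the 5, with the nearest other peak 192 kb away, where the median over all peaks was 73.9 kb (interquartile range 21.9 to 179). The others had a neighbor at 24.2 to 58.1 kb. By order in the RefSeq table, Gdf3 precedes Dppa3 and the pluripotency gene Nanog follows it, and neither had an assigned peak. By this order the Dppa3 peak lies on the Nanog side. Nanog has no row, so the distance from the peak to Nanog was not measured.

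**Figure D2:**
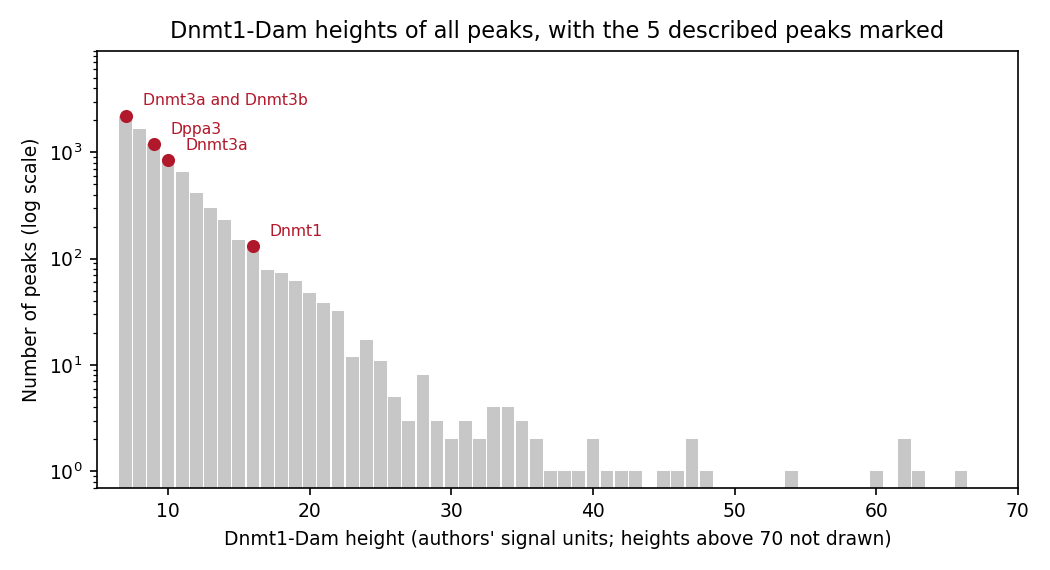
Number of peaks (log scale) at each Dnmt1-Dam height in authors' signal units for the whole table, with heights above 70 not drawn. Red points mark the heights of the 5 peaks: 7 for the Dnmt3a gene body and Dnmt3b peaks, 9 for Dppa3, 10 for the upstream Dnmt3a peak and 16 for Dnmt1.

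As a group the 5 peaks were of ordinary height. Their median was 9 (range 7 to 16), equal to the median of 9 over all peaks (interquartile range 7 to 11). In each entry of the table the 2 heights differed by 6 or more, with Dnmt1-Dam the higher one, so a higher Dnmt1-Dam value at these 5 positions is a condition of being listed and not a finding. On a log2 scale with a pseudocount of 1, after the Dam-only heights were scaled to the Dnmt1-Dam sum over all peaks, the median ratio of the 5 was 0.05, against 0.21 for all peaks. Among peaks whose heights sum to 10 or more both medians were 0.37. Single values were 1.13 for Dnmt1, 0.37 for Dppa3, 0.05 for Dnmt3b, 0.05 for the Dnmt3a gene body peak and -0.40 for the upstream Dnmt3a peak. A value of 0 here is the ratio of the sums. Without scaling the medians were 2.0 for the 5 peaks and 2.17 for all peaks.

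The surroundings of the 4 genes differed in how many peaks they held. Within 100 kb of its body Dnmt3a had 5 peaks, its own included, Dnmt3b had 3, Dnmt1 had 2 and Dppa3 had 1. The median over the 4903 transcripts with an assigned peak was 2 (interquartile range 1 to 3), and 95.9% of them had fewer than 5. The Dnmt3a body is also long, longer than 74.5% of the 4633 with a gene name, and that widens the stretch counted. Its neighbors included the highest peaks of these surroundings. Inside Dtnb, a peak of 21 against 6 lay 79.6 kb upstream of Dnmt3a, and inside Efr3b, which encodes a membrane scaffold protein, a peak of 20 against 4 lay 60.2 kb past its end. A peak of 8 against 1 in a SINE, assigned to the hormone precursor gene Pomc, was 11.5 kb past the end of Dnmt3a. Of these 5 peaks 3 had a Dam-only height above 1, where 75.8% of all peaks were at 1. The part of open DNA in these heights was not tested.

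Downstream of Dnmt3b both neighboring peaks were assigned to Mapre1, a microtubule end-binding protein gene. The nearer, 19.9 kb past the Dnmt3b body, was 12 against 1 in a SINE within a shelf and so was higher than the peak inside Dnmt3b. The farther, 73.5 kb away and inside Mapre1, was 7 against 1. Upstream of Dnmt1, a peak of 7 against 1 lay 26.7 kb from the Dnmt1 start, in a SINE of the proximal promoter of S1pr2, a sphingosine phosphate receptor gene.

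**Figure D3:**
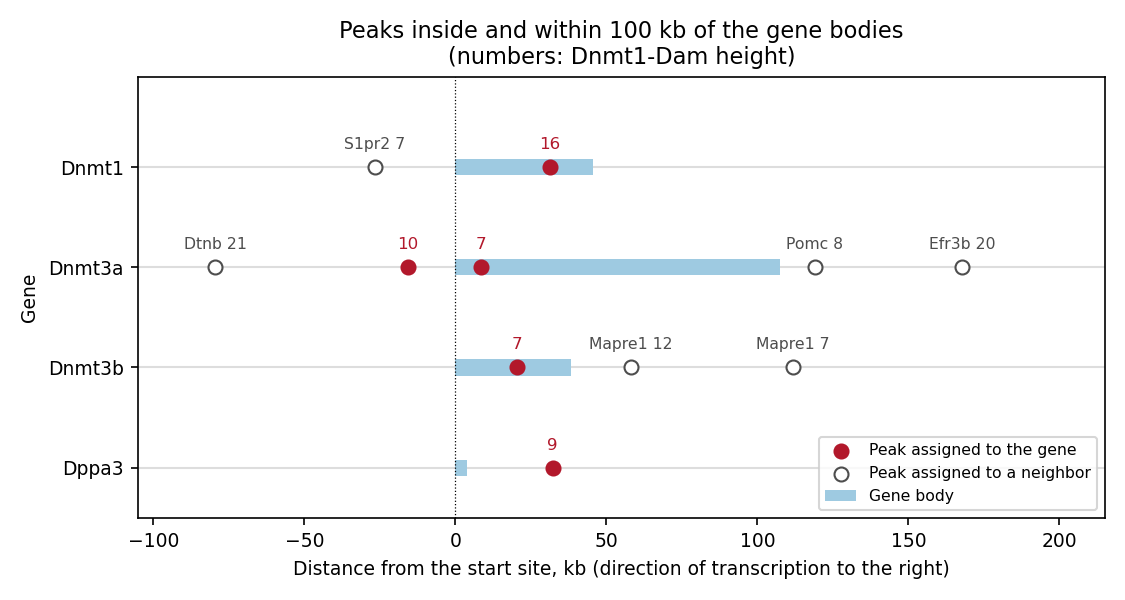
Peaks along the 4 genes with an assigned peak, by distance from the start site in kb and in the direction of transcription. Blue bars are gene bodies, red points are the peaks assigned to the gene, open points those assigned to neighbors within 100 kb of the body, and numbers are Dnmt1-Dam heights. Dnmt3a has 5 peaks in its surroundings and Dppa3 only its own.

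The 6 genes without an assigned peak were looked at through their neighbors, with gene order from the RefSeq table and positions from the file. For each, the stretch between the closest genes with a row on either side was searched. Only genes with an assigned peak have a row, so a peak assigned to a gene in between would have ended the stretch. Only peaks assigned to the 2 bounding genes could thus appear. An empty stretch is therefore no result of its own, and its length only gives the distance between genes with a row. Each stretch also held other genes without a row, from 4 around Uhrf1 to 27 around Tdg. Around Tet2 (1879 kb, between Npnt and Tacr3), Tdg (1289 kb, between Gna11 and Txnrd1) and Dnmt3l (203.5 kb, between Trpm2 and Pwp2) no peak was listed. Around Tet1 (845.5 kb, between Neurog3 and Rufy2) there were 2, both at the edges. One was 9 against 1, 14.2 kb from Neurog3, and the other 10 against 2, 1.38 kb from Rufy2. Around Uhrf1 (107 kb, between Dpp9 and Kdm4b) there was 1, of 9 against 2, 16.3 kb from Dpp9 and 91.0 kb from Kdm4b. Kdm4b, the next gene after Uhrf1 and a histone demethylase gene, held peaks of 12 against 1 and 10 against 1 in a shore inside its body. These lay 7.27 and 7.38 kb from its start, less than 1 kb apart, and so need not be separate sites.

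The stretch around Tet3, the dioxygenase of the zygote, ran from Bola3 to Dysf (661 kb) and held 1 peak. It was 12 against 1, at 83351721 on chromosome 6, in a SINE and in a CpG island shore. The file called it intergenic and assigned it to Bola3, a gene of iron-sulfur cluster assembly, 43.3 kb past that gene's end. Tet3 is the next protein-coding gene after Bola3 in the RefSeq order. None of the 4180 peaks called intergenic lay inside the body of another gene with a row. Tet3 has no row, so that count could not cover it. Whether this peak falls within Tet3 in mm9, and whether the submitters' annotation held Tet3, was not tested.

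Counted as genes, 4 of 10 had an assigned peak (40.0%, 12.2 to 73.8), where the share over 21035 RefSeq genes with a curated messenger RNA was 22.7%. Inside bodies it was 3 of 10 (30.0%, 6.67 to 65.3) against 11.7%, and in promoter classes 0 of 10 against 2.42%. Both intervals contain the background, so neither count set the 10 genes apart. With peaks of height 9 or more 3 of 10 genes were left, against 14.5%, and with height 15 or more only Dnmt1, against 2.98%. By role, 3 of 3 active methyltransferases had an assigned peak, and 0 of 3 Tet genes did, a difference that was not tested. These counts rest on the deposited assignment. The gene list of the submitters' annotation is not known, and a RefSeq gene absent from it would be counted as having no peak. Whether the peak of 12 against 1 assigned to Bola3 falls within Tet3 was not tested either.

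Genes that work with these 10 were taken as 6 lists, of which 57 of 58 genes were in the background, all but Dnmt3c. A peak was assigned to 17 of the 57 (29.8%, 18.4 to 43.4), against the background of 22.7%, and their 28 peaks had a median height of 8. Each list's interval contained the background. Genes that target methylation to retroelements and imprints had a peak in 4 of 8. These were Resf1, at 15 against 1 in a SINE of its body, the histone methyltransferase gene Setdb1, at 10 against 1 in a SINE at -30.5 kb from its start site, the demethylase gene Kdm1b, at 10 against 1 in its body, and the Setdb1 partner gene Atf7ip, at 8 against 1 in its distal promoter. Their top heights all lay below that of Dnmt1.

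Among methyl-CpG readers 3 of 10 had a peak, among them Zbtb38 (7 against 1, in a shore of its proximal promoter) and Mbd2 (7 against 1, intergenic). Among other enzymes and maintenance partners 2 of 8 did. Usp7, which deubiquitinates Dnmt1 and Uhrf1, had 8 against 1 in its distal promoter and in a shelf, and Cdca7, a partner of the remodeler Hells, had a top peak of 8 against 2 in intergenic DNA. Peaks in a promoter class were thus assigned to Usp7, Zbtb38 and Atf7ip, 3 of the 57 genes, where the background share was 2.42%. No interval was computed for this small count, and the difference was not tested.

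On the demethylation side, base excision repair had a peak at 2 of 15 genes (13.3%, 1.66 to 40.5). This was the lowest share of the 6 lists, but its interval contained the background of 22.7%. Polb, the repair polymerase gene, had 10 against 4 in its body, and Gadd45g a top peak of 11 against 1 far downstream. TET partners and cofactor enzymes had 3 of 8, namely Idh3a (9 against 3, in a SINE of its body), Ogt (8 against 1, at -11.1 kb from its start site) and Idh2 (7 against 1, in a SINE at -25.2 kb from its start site). Methyl donor supply also had 3 of 8. For both lists the share was 37.5% (8.52 to 75.5), again with the background inside the interval. Ahcy, which clears the methylation by-product S-adenosylhomocysteine, had 11 against 4 in its body, 2.04 kb from the start. Mtr, the methionine synthase gene, had a top peak of 9 against 3 in its body, and Mat2b one of 8 against 2 in an LTR element 720 kb from its start.

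**Figure D4:**
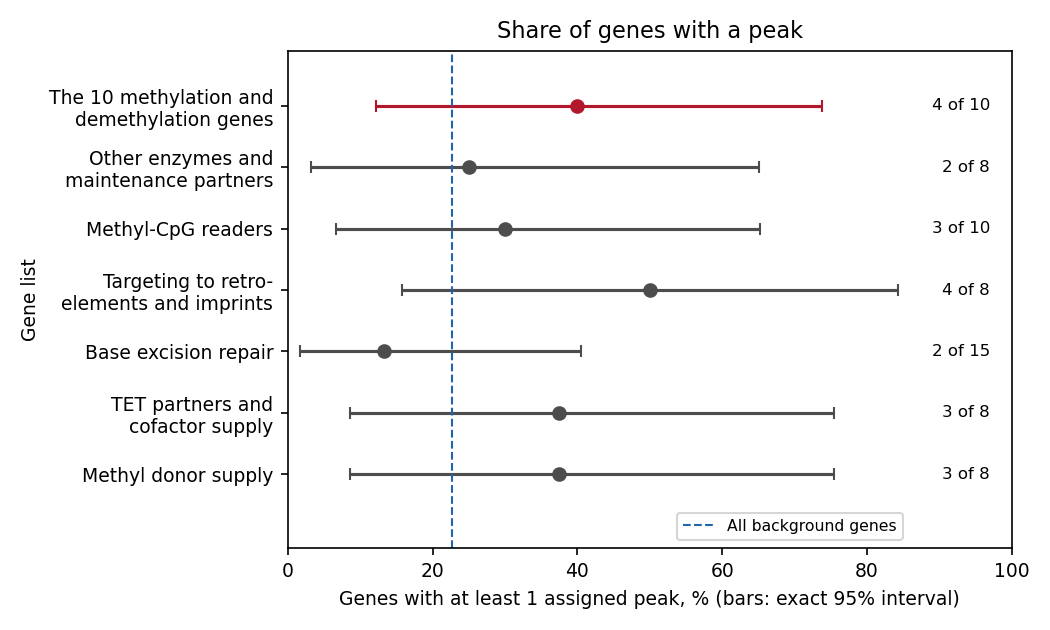
Share of genes with at least 1 assigned peak (%), with exact 95% intervals and the number of genes, for the 10 genes (red) and 6 lists of related genes (grey). The dashed line is the 22.7% of 21035 background genes, and it lies inside each of the 7 intervals.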

How the data were processed

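Genomic DNA of 1 Dnmt1-Dam and 1 Dam-only library was end-repaired, ligated to adapters, run through 15 PCR cycles and sized to about 300 bp, per the labels' protocols. CASAVA, BWA and build mm9 are named in the submitters' processing notes. A peak caller, a threshold, the depth and the treatment of duplicate or multiply mapped reads were not given in the sources used here. As deposited, the authors' table holds 1 signal height per peak and library as whole numbers, which were not treated as counts, together with location, repeat, island and gene columns.

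Rows were taken by gene name. Of 473 peaks without a name and 4903 accessions, matching by accession, gene ID or synonym in a RefSeq table (GRCm38.p6) added 0 peaks to the 10 genes, and 20 accessions were unmatched. Distances were computed from the deposited gene start, end and strand. The location class of 8226 of 8226 peaks followed the distance rule. Shares have exact Clopper-Pearson 95% intervals (scipy 1.17.1). The functions were tested on a simulated peak table. The 10 genes and the 6 lists were chosen with earlier results of these data known. Named genes were the 10, up to 4 of each list with the highest peak, and genes with a peak within 100 kb. Of the genes this rule takes, 1 is not reported here by name. The search between neighbors of genes without a peak, and the reading of promoter windows, were chosen after seeing the data. Alternatives were height minimums of 9 and 15, 1 peak per 1 kb run, a Dam-only height of 1, narrower gene assignment, other matching, pseudocounts of 0.5 and 10, no scaling, and heights summing to 10 or more.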

Additional observations from a re-analysis of the deposited data

How the results depend on the processing

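Of 37 recalculated values, 24 stayed within the main interval, the spread between the 5 peaks or 1.5 times the main count, and 13 moved beyond. With heights of 9 or more the peaks of the 10 genes went from 5 to 3 and the related genes with a peak from 17 to 9. With heights of 15 or more 1 peak at 1 gene was left, that of Dnmt1, so the median height was 16 and the shares in gene bodies and in repeats were 100%, and 1 related gene had a peak. With gene bodies alone, or with 10 kb added, 3 peaks were left, and the related genes numbered 7 and 10. These settings keep fewer peaks by construction. At height 9 or more 33.3% of the peaks lay in gene bodies and 33.3% named a repeat. Without scaling the median log2 ratio was 2.0, since the sums of the heights differ, and with heights summing to 10 or more it was 0.37. No paired analysis was possible because each group is 1 library. Depth is unknown and each of the 5 heights has no replicate check.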

Other observations

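Several related genes collected more than 1 peak without any inside the body. Gadd45g, a stress-induced gene linked to DNA repair, had 4 assigned peaks, with a top height of 11 against 1 some 248 kb past its start site. Mbd2, a methyl-CpG reader gene, also had 4, and Cdca7 had 3. Kdm1b, Resf1 and Mtr had 2 peaks each, all inside the body. The whole list has 8226 peaks on 4903 transcripts, and intergenic peaks went to the nearest start among the genes with a row. The share of all genes with more than 1 peak was not computed, so these counts do not set the named genes apart.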
